A study of Mus musculus with 15 samples.

Results

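The genes described here are 37 heat shock proteins, chaperonin subunits and their regulators, taken from a mouse bone marrow RNA sequencing table of 56979 gene identifiers. They were chosen by symbol, and every one of the 37 was found under a single identifier. They comprise 2 heat shock factors, 18 cytosolic chaperones and co-chaperones, 7 subunits of the cytosolic chaperonin CCT, 4 mitochondrial chaperones and 6 chaperones of the endoplasmic reticulum (ER). All libraries came from wild type mouse bone marrow, from cells labelled BMDM, the usual abbreviation of bone marrow-derived macrophages, or BMSC; the labels spell out neither, and the check against cell type markers is given below. The BMDM groups were LPS_NZM (LPS followed by NZM), LPS (lipopolysaccharide, a bacterial outer membrane component that activates macrophages) and Control (vehicle). The BMSC groups were Aged_NZM (treatment H2HO with NZM) and Aged (treatment H2HO). Each group held 3 libraries, 15 in all. The labels explain neither NZM nor H2HO, give no dose, time or age of the animals, and do not say whether the libraries of a group came from separate animals or cultures, so the p-values reflect no more than the scatter among these libraries, which may be technical. All 5 groups had received a vehicle, LPS or H2HO, and no BMSC library without H2HO was analysed here.

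Chaperones bind unfolded proteins and help them fold, and each compartment of the cell has its own set. In the cytosol, HSP70 proteins bind short exposed stretches of a protein and release them again in a cycle driven by ATP. DNAJ (HSP40) proteins bring clients to HSP70 and start ATP hydrolysis, HSP110 proteins exchange the nucleotide, and HSP90 receives partly folded clients such as kinases and steroid receptors. CCT is a barrel of related subunits that folds actin and tubulin, while mitochondria use HSP60 with its lid HSP10, and the ER uses the HSP70 protein BiP and the HSP90 protein GRP94. Heat shock factor 1, encoded by Hsf1, is held inactive by chaperones and binds heat shock elements in promoters when unfolded proteins accumulate. ER chaperones have their own promoter element, the ER stress element, bound by ATF6 and NF-Y in the unfolded protein response.

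Promoter sequence was available from RefSeq (GRCm38.p6) for 30 of the 37 genes, as 38 windows running from 250 bases before a transcription start to 50 bases after it; Hsf1, Hspa8, Hspa13, Hsp90aa1, Hsp90ab1, Hspa9 and Cct4 had none. A 2-unit heat shock element, spelled GAANNTTC or TTCNNGAA and read on both strands, was present in 13 of the 38 windows (34.2%), from 12 genes, against 15.1% of all 32851 windows of that length. The 3-unit element (GAANNTTCNNGAA or TTCNNGAANNTTC), which contains the 2-unit one, was found in Hsph1, Hspd1 and Hspe1, 4 windows (10.5%) against 0.603% of all windows; in Hsph1, whose overlapping windows count separately, it lies after the start and is not printed. Both shares count linked windows separately, since Hspd1 and Hspe1 share the matched bases and the Hspa1a and Hspa1b windows are nearly identical. The stretches below are those of the inducible HSP70 genes, the small heat shock protein gene Hspb1, the HSP110 gene Hsph1 and the mitochondrial chaperonin genes. They were picked because these genes carry the element and moved in different directions, as in LPS against Control as deposited. There the falls of Hspb1 and Hspe1 were not called after median centring, described below (-0.062 and -0.029). Bag3, Cct2, Cct5, Dnaja1, Dnajb4 and Hspb8 also carry a 2-unit element and are not printed. Each runs 5′ to 3′ on the gene's strand with 20 bases either side of the matches, and capitals mark the elements.
Hspa1a: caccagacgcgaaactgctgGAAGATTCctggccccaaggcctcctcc
Hspa1b: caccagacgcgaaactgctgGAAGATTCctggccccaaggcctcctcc
Hspb1: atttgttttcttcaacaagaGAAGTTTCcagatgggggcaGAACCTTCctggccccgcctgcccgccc
Hsph1: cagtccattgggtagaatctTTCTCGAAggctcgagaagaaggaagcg
Hspe1: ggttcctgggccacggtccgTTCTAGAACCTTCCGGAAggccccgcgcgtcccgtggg
Hspd1: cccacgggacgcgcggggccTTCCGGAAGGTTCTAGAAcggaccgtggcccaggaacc

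The Hspa1a stretch lies at chr17:34972233-34972280 and the Hspa1b stretch at chr17:34959315-34959362, both on the minus strand, with the element between 104 and 97 bases before the start in both. Over the whole window the promoters of this gene pair differ at 4 of 300 positions. Hspd1 (minus strand) and Hspe1 (plus strand) are divergent neighbours, and the stretches printed for them are the same bases of chr1:55088039-55088096 read on opposite strands. The Hspb1 stretch is at chr5:135887782-135887849 on the plus strand and that of Hsph1 at chr5:149636342-149636389 on the minus strand.

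The ER stress element (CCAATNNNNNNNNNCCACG, both strands) was present in 3 of the 5 ER chaperone windows, those of Hspa5, Hsp90b1 and Dnajc3, in none of the other member windows, and in 0.119% of all windows. These 3 stretches are shown because their genes were the ER members called higher with NZM in BMSC as deposited. They lie at chr2:34772005-34772063 (plus strand), chr10:86705513-86705676 (minus strand) and chr14:118937807-118937865 (plus strand).
Hspa5: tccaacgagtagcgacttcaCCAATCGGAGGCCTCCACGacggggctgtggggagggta
Hsp90b1: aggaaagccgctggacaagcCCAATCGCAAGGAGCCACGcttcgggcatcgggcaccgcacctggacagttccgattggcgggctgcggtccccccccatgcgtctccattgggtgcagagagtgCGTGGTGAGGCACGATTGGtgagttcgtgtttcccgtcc
Dnajc3: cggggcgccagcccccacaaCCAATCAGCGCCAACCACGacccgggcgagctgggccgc
A match is a description of the letters in these windows and no evidence of binding.

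Values are TPM, a length-corrected share of each library, so the depth behind them is unknown and a large rise of a few transcripts lowers the share of all others. Changes are differences of log2(TPM + 1) tested with limma, and a gene was called at a Benjamini-Hochberg adjusted p under 0.05 over all tested genes. The median tested gene was itself displaced, by -0.48 for LPS against Control and by 0.40 for LPS_NZM against LPS. Each change was therefore also computed after subtracting from each library its own median over the tested genes (the centred scale, or centring). Centred values are printed for many changes, and others are printed as deposited only. As checks of the cell type, all 12 macrophage markers averaged at least 1 TPM in each BMDM group, whereas C1qb and C1qc were listed at 0 in every BMSC library and the list summed to 107 to 131 TPM there, against 26217 to 35650 TPM in BMDM. Most of the BMSC sum was Cd14, with 88.7 to 98.2 TPM in Aged_NZM and 92.2 to 97.4 TPM in Aged. Cd14 was hardly higher in LPS_NZM (100 to 102 TPM), but reached 216 to 239 TPM in Control and 2378 to 2407 TPM in LPS. Cd68 had 12.4 to 13.9 TPM in Aged_NZM and 22.6 to 26.4 TPM in Aged. Of 12 stromal markers 11 averaged at least 1 TPM in BMSC, with Lepr the exception, and their sum was 6313 to 6324 TPM in Aged_NZM and 2755 to 2862 TPM in Aged libraries. BMDM libraries also held stromal transcripts, summing to 2487 to 2586 TPM in LPS_NZM, 2363 to 2578 TPM in LPS and 2891 to 3107 TPM in Control. All 12 stromal markers averaged at least 1 TPM in each BMDM group, and the Aged sums lay between those of LPS_NZM and Control. Neither the count nor the sum of this list therefore sets Aged apart from BMDM. Single markers went both ways: Col1a1 had 297 to 330 TPM in Aged and 1248 to 1368 TPM in Control, and Dcn had 1496 to 1530 and 87.9 to 92.5 TPM. Neutrophil transcripts summed to 2057 to 2462 TPM in LPS_NZM, 2284 to 2516 TPM in LPS and 1612 to 1798 TPM in Control. Mast cell and basophil markers summed to 117 to 205 TPM in LPS_NZM and 215 to 240 TPM in LPS, but to 7.32, 524 and 190 TPM in the Control libraries, which stood apart from one another. The part of other cells in the chaperone values was not tested, and in bulk libraries fewer cells of a type and less RNA per cell cannot be told apart.

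The 37 genes together took 1.13% of transcripts in LPS_NZM, 0.933% in LPS and 1.02% in Control libraries, and 0.933% in Aged_NZM and 1.41% in Aged libraries. In BMDM the constitutive HSP70 gene Hspa8 stood first in all groups, with 2849 ± 67.8 TPM in LPS_NZM, 2692 ± 50.1 TPM in LPS and 2396 ± 21.0 TPM in Control (SD, n = 3 each, as for every mean below). In BMSC the constitutive HSP90 gene Hsp90ab1 stood first, with 1895 ± 21.9 TPM in Aged_NZM and 3042 ± 83.1 TPM in Aged. The small heat shock proteins set BMDM and BMSC libraries apart. Every BMSC library had H2HO and no BMDM library did, so cell type and treatment cannot be told apart here. Hspb1 had 92.1 to 103 TPM in LPS_NZM, 75.0 to 80.1 TPM in LPS and 117 to 121 TPM in Control libraries, against 0.10 to 0.63 TPM in Aged_NZM and 0 to 0.46 TPM in Aged libraries. Hspb8, which works with the co-chaperone BAG3, ran the other way, with 6.03 to 7.20 TPM in LPS_NZM, 6.46 to 6.76 TPM in LPS and 6.77 to 11.4 TPM in Control, against 91.8 to 97.0 TPM in Aged_NZM and 114 to 121 TPM in Aged. No range of one cell type reached that of the other for either gene.

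**Figure D1:**
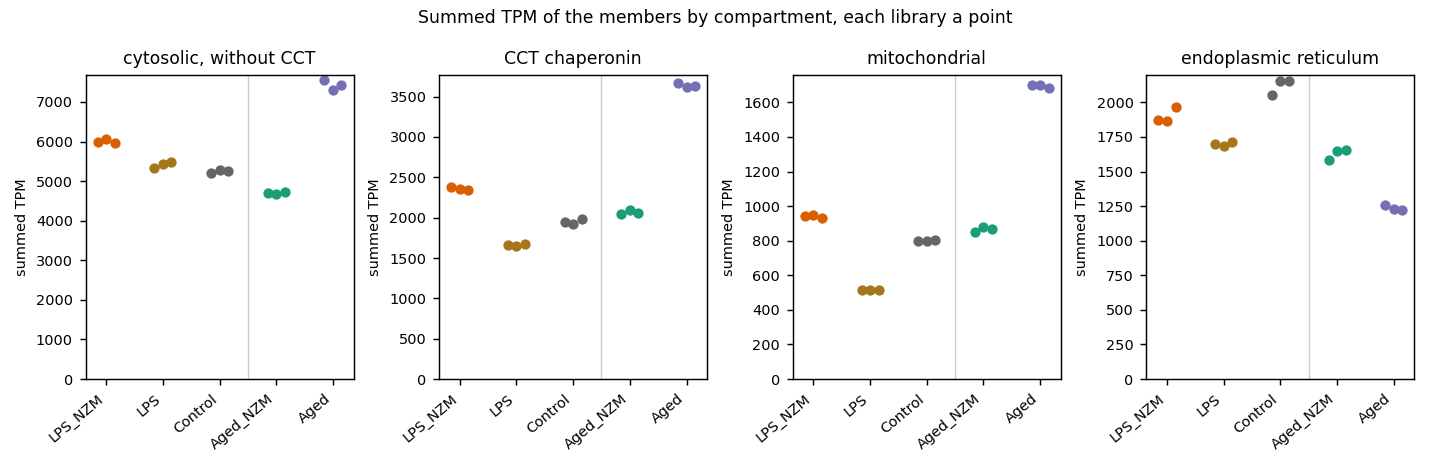
Summed TPM of the members of each compartment (vertical axis, from 0) in each library (points), by group, with BMDM left and BMSC right of the grey line. Mitochondrial members summed to 942 ± 10.4 TPM in LPS_NZM, 514 ± 0.193 TPM in LPS and 802 ± 4.05 TPM in Control, and to 865 ± 13.5 TPM in Aged_NZM and 1695 ± 8.68 TPM in Aged, while ER members were higher in Aged_NZM (1629 ± 41.5 TPM) than in Aged (1235 ± 21.8 TPM).

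LPS raised the inducible HSP70 genes and some DNAJ genes in macrophages. Hspa1a and Hspa1b, which encode nearly identical stress-inducible HSP70 proteins, rose by 2.13 and 1.58 on the log2 scale, and Dnaja2, Dnaja1, Dnajb1 and the HSP70-HSP90 adaptor gene Stip1 rose with them. HSP110 (Hsph1), the DNAJ gene Dnajb4, the ER gene Dnajc3 and mitochondrial HSP60 (Hspd1) fell on both scales. As deposited, 8 of the 37 members were called higher and 26 lower, against 15.2% and 65.6% of all 14486 genes tested. On the centred scale 21 were called higher and 6 lower, against 36.5% and 29.1% of all genes, so the direction of most members that moved little depended on the scale.

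Hspa1a had 41.4, 39.9 and 39.98 TPM in the LPS libraries, against 10.5, 7.88 and 7.23 TPM in the Control libraries. Hspa1b had 55.4, 50.9 and 55.2 TPM in the LPS libraries, against 18.9, 15.0 and 18.2 TPM in the Control libraries. The groups did not overlap for either gene, and every LPS library was higher. The change was 2.13 ± 0.113 for Hspa1a (SE, limma adjusted p = 4.87e-08) and 1.58 ± 0.0897 for Hspa1b (adjusted p = 8.29e-08), and 2.68 and 2.13 on the centred scale. Since reads of such close copies can be divided between them in error, the split is uncertain, and the sum of both genes was also tested, a choice made after seeing the data. The sum was 94.3 ± 3.10 TPM in LPS and 25.9 ± 3.28 TPM in Control, a change of 1.83 ± 0.0862 (limma adjusted p = 2.06e-08).

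Dnaja2, a cytosolic HSP40 protein, had 249, 249 and 253 TPM in the LPS libraries, against 137, 132 and 137 TPM in the Control libraries. It changed by 0.88 ± 0.0319 (limma adjusted p = 3.01e-09), without overlap. Among the others, Dnaja1 changed by 0.51, Dnajb1 by 0.30 and Stip1 by 0.32, and on the centred scale these values were 1.06, 0.85 and 0.86. The rise of Hspa8 was small as deposited, 0.17 ± 0.0244, and 0.71 centred. Hspa4l, an HSP110 relative, rose by 0.28 (limma adjusted p = 0.0167), a call that was lost without LPS library 1 (0.24, adjusted p = 0.0614). Of the heat shock factors, Hsf1 changed by -0.62, a call absent on the centred scale (-0.071), and Hsf2 was not called as deposited (0.084) and was higher on the centred scale (0.63).

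Several cytosolic members went down. Hsph1, the HSP110 nucleotide exchange factor, had 52.9, 51.6 and 50.5 TPM in the LPS libraries, against 84.2, 98.3 and 89.6 TPM in the Control libraries, a change of -0.80 ± 0.0510 (limma adjusted p = 2.08e-07; -0.25 centred). Hspa14, the HSP70 protein of the ribosome-associated complex, had 26.4, 26.3 and 25.2 TPM in LPS, against 49.3, 48.1 and 45.8 TPM in Control (-0.86 ± 0.0486, limma adjusted p = 8.55e-08; -0.31 centred). Both genes were lower in every LPS library. Dnajb4 averaged 22.2 ± 2.28 TPM in LPS and 45.0 ± 3.18 TPM in Control (-0.99; -0.44 centred), and Hspa4 changed by -0.67 (-0.12 centred). Bag3 (-0.63), Hspb1 (-0.61) and Hspa2 (-0.45) were lower as deposited only, and their centred values, -0.082, -0.062 and 0.099, were not called. Hspb8 was called lower by 0.41 (limma adjusted p = 0.0276), a call lost when any of the 3 LPS libraries or Control library 1 or 2 was left out (adjusted p = 0.0506 to 0.104) and absent on the centred scale. The cytosolic HSP90 genes changed by -0.092 (Hsp90aa1) and -0.17 (Hsp90ab1) as deposited and by 0.45 and 0.38 centred, with calls in opposite directions, and the Hsp90aa1 call as deposited was lost with no variance trend (limma adjusted p = 0.0622).

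**Figure D2:**
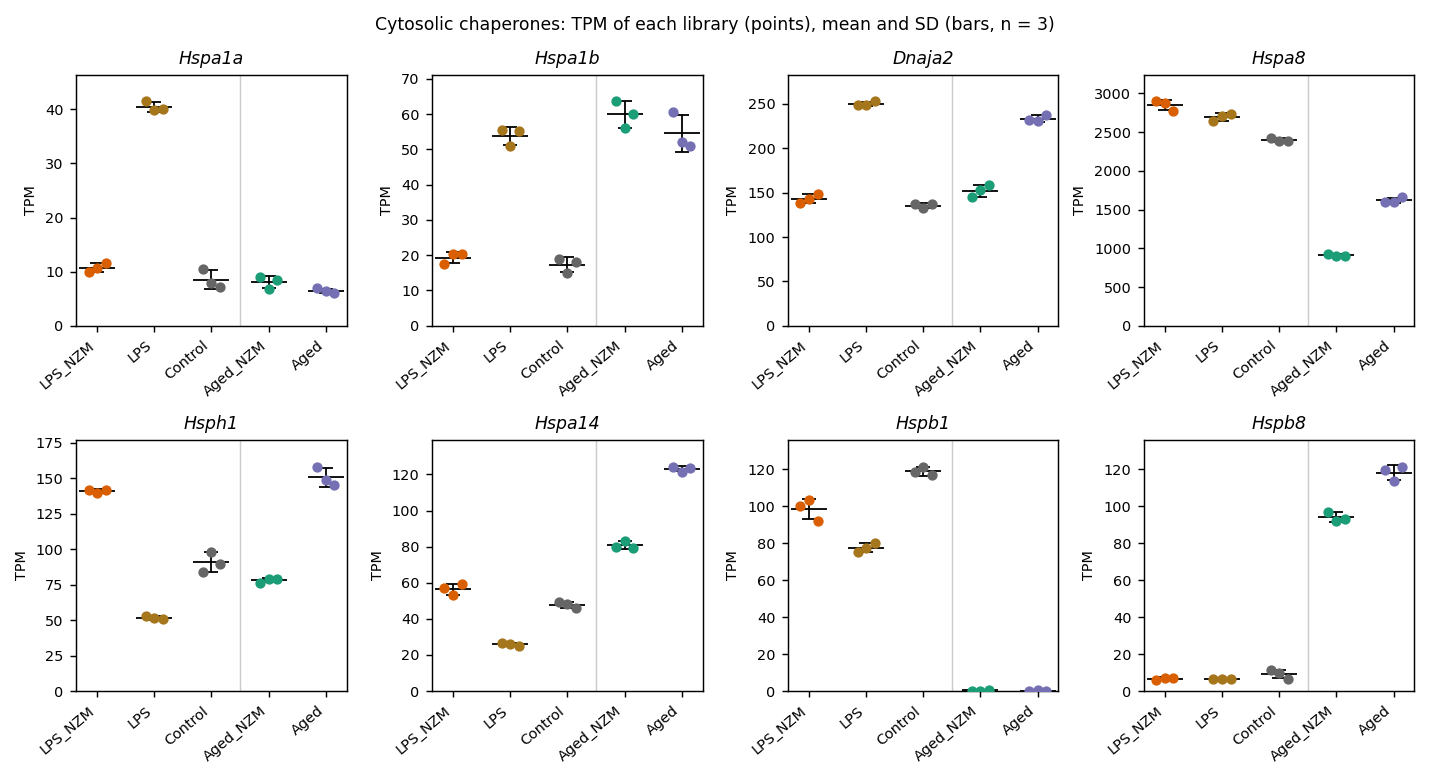
TPM (vertical axes, from 0) of 8 cytosolic members in every library (points) with the group mean and SD (bars, n = 3), BMDM groups left and BMSC groups right of the grey line. Hspa1a, Hspa1b and Dnaja2 stand highest among BMDM in the LPS libraries, Hsph1 and Hspa14 stand lowest there, and Hspb1 and Hspb8 set BMDM and BMSC libraries apart.

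All 7 CCT members were called lower in LPS as deposited, by 0.12 to 0.38, and all 7 were called higher after centring, by 0.16 to 0.43, so no direction can be given for this complex. All 4 mitochondrial members were lower as deposited. Hspd1 had 177, 172 and 177 TPM in the LPS libraries, against 295, 300 and 302 TPM in the Control libraries, and was lower on both scales (-0.77 ± 0.0278, limma adjusted p = 3.08e-09; -0.22 centred). Its lid gene Hspe1 (-0.58), the mitochondrial HSP70 gene Hspa9 (-0.59) and the mitochondrial HSP90 gene Trap1 (-0.47) had centred values of -0.029, -0.039 and 0.073, none of them called. In the ER set, Dnajc3, a DNAJ protein that assists BiP, had 33.4, 33.8 and 33.6 TPM in LPS, against 64.2, 69.2 and 67.9 TPM in Control (-0.98 ± 0.0476, limma adjusted p = 2.67e-08; -0.43 centred). BiP itself, Hspa5, had 848, 849 and 869 TPM in LPS and 831, 887 and 894 TPM in Control, which overlap, with a change of -0.024 ± 0.0308 (limma adjusted p = 0.484); its centred value was 0.52 and called. Hsp90b1 (-0.57), Dnajb11 (-0.56) and Dnajb9 (-0.41) were lower as deposited, and their centred values were -0.020, -0.013 and 0.13, of which that of Dnajb9 was called higher. Hspa13 was not called as deposited (-0.076) and was higher centred (0.47).

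NZM given after LPS went with lower inducible HSP70 and higher mitochondrial chaperone transcripts. Compared with LPS alone, LPS_NZM libraries held less Hspa1a, Hspa1b, Dnaja2, Dnaja1, Dnajb1, Hspa4l and Hsf2 and more Hsph1, Hspa14, Hspa4, Hsf1, Dnajc3, Cct5 and all 4 mitochondrial chaperones, on both scales. As deposited, 22 of 37 members were called higher and 9 lower, against 60.4% and 16.9% of all genes, and centred 10 were called higher and 19 lower, against 29.8% and 35.3% of all genes. The LPS libraries enter both this comparison and that of LPS against Control, so opposite changes in the pair are not separate findings, and each LPS_NZM value is therefore also set against Control below.

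Hspa1a had 9.93, 10.7 and 11.6 TPM in the LPS_NZM libraries, against 39.9 to 41.4 TPM in the LPS libraries, a change of -1.82 ± 0.113 (limma adjusted p = 1.63e-07; -2.29 centred). Hspa1b had 17.4, 20.4 and 20.3 TPM in LPS_NZM, against 50.9 to 55.4 TPM in LPS (-1.43 ± 0.0897, limma adjusted p = 1.78e-07; -1.90 centred). Dnaja2 had 138, 143 and 148 TPM in LPS_NZM, against 249 to 253 TPM in LPS (-0.80 ± 0.0319, limma adjusted p = 5.65e-09; -1.27 centred). For these genes every LPS_NZM library was below every LPS library. Among the remaining falls, Hspa4l changed by -0.80 (-1.27 centred), Hsf2 by -0.64 (-1.11 centred), the ER HSP70 gene Hspa13 by -0.42 (-0.89 centred), Dnajb1 by -0.38 (-0.84 centred), Dnaja1 by -0.35 (-0.81 centred) and Stip1 by -0.10 (-0.56 centred).

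Hsph1 had 141, 140 and 142 TPM in the LPS_NZM libraries, against 50.5 to 52.9 TPM in the LPS libraries, the largest rise of the 37 members in this comparison (1.43 ± 0.0510, limma adjusted p = 2.50e-09; 0.97 centred). Hspa14 had 56.9, 53.3 and 59.2 TPM in LPS_NZM, against 25.2 to 26.4 TPM in LPS (1.09 ± 0.0486, limma adjusted p = 1.30e-08; 0.63 centred). Hsf1, whose protein drives the heat shock response, had 38.0, 37.2 and 36.9 TPM in LPS_NZM, against 20.95, 19.98 and 19.4 TPM in LPS (0.86 ± 0.0526, limma adjusted p = 1.45e-07; 0.40 centred). The groups did not overlap for any of the 3 genes. Hspa4 rose by 0.75 (0.28 centred). Hspa8 was called higher as deposited (0.082) and lower centred (-0.38), and the call as deposited was lost with no filter (limma adjusted p = 0.0537) or no variance trend (adjusted p = 0.0793). Hsp90ab1 was higher as deposited (0.43) and not called centred (-0.036). Hsp90aa1 (-0.049), Dnajb4 (0.13), Hspa2 (-0.070) and Hspb8 (0.025) were not called as deposited, and each was lower centred. Hsp90aa1 became a call without LPS_NZM library 3 (-0.074, limma adjusted p = 0.0390), and Dnajb4 without LPS library 1 (0.21, adjusted p = 0.0431). Bag3 (0.31) and Hspb1 (0.34) were higher as deposited and had centred values of -0.15, called lower, and -0.13, not called.

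Hspd1 had 344, 359 and 361 TPM in the LPS_NZM libraries, against 172 to 177 TPM in the LPS libraries (1.01 ± 0.0278, limma adjusted p = 3.76e-10; 0.55 centred). Its lid gene Hspe1 had 117, 101 and 96.6 TPM in LPS_NZM, against 51.7, 53.5 and 46.5 TPM in LPS (1.04 ± 0.0814, limma adjusted p = 1.02e-06; 0.57 centred). Neither gene overlapped between the groups, and both rose together with Hspa9 (0.72; 0.25 centred) and Trap1 (0.82; 0.36 centred). All 7 CCT members were higher as deposited, by 0.37 to 0.75, but centred only Cct5 was called higher (0.29) and Tcp1 was called lower (-0.090). Dnajc3 rose by 0.70 (0.24 centred). Hsp90b1 (0.29) and Dnajb11 (0.53) were higher as deposited, with centred values of -0.17, called lower, and 0.064, not called. Hspa5 was not called as deposited (-0.031) and was lower centred (-0.50), and Dnajb9 behaved alike (0.075 and -0.39).

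**Figure D3:**
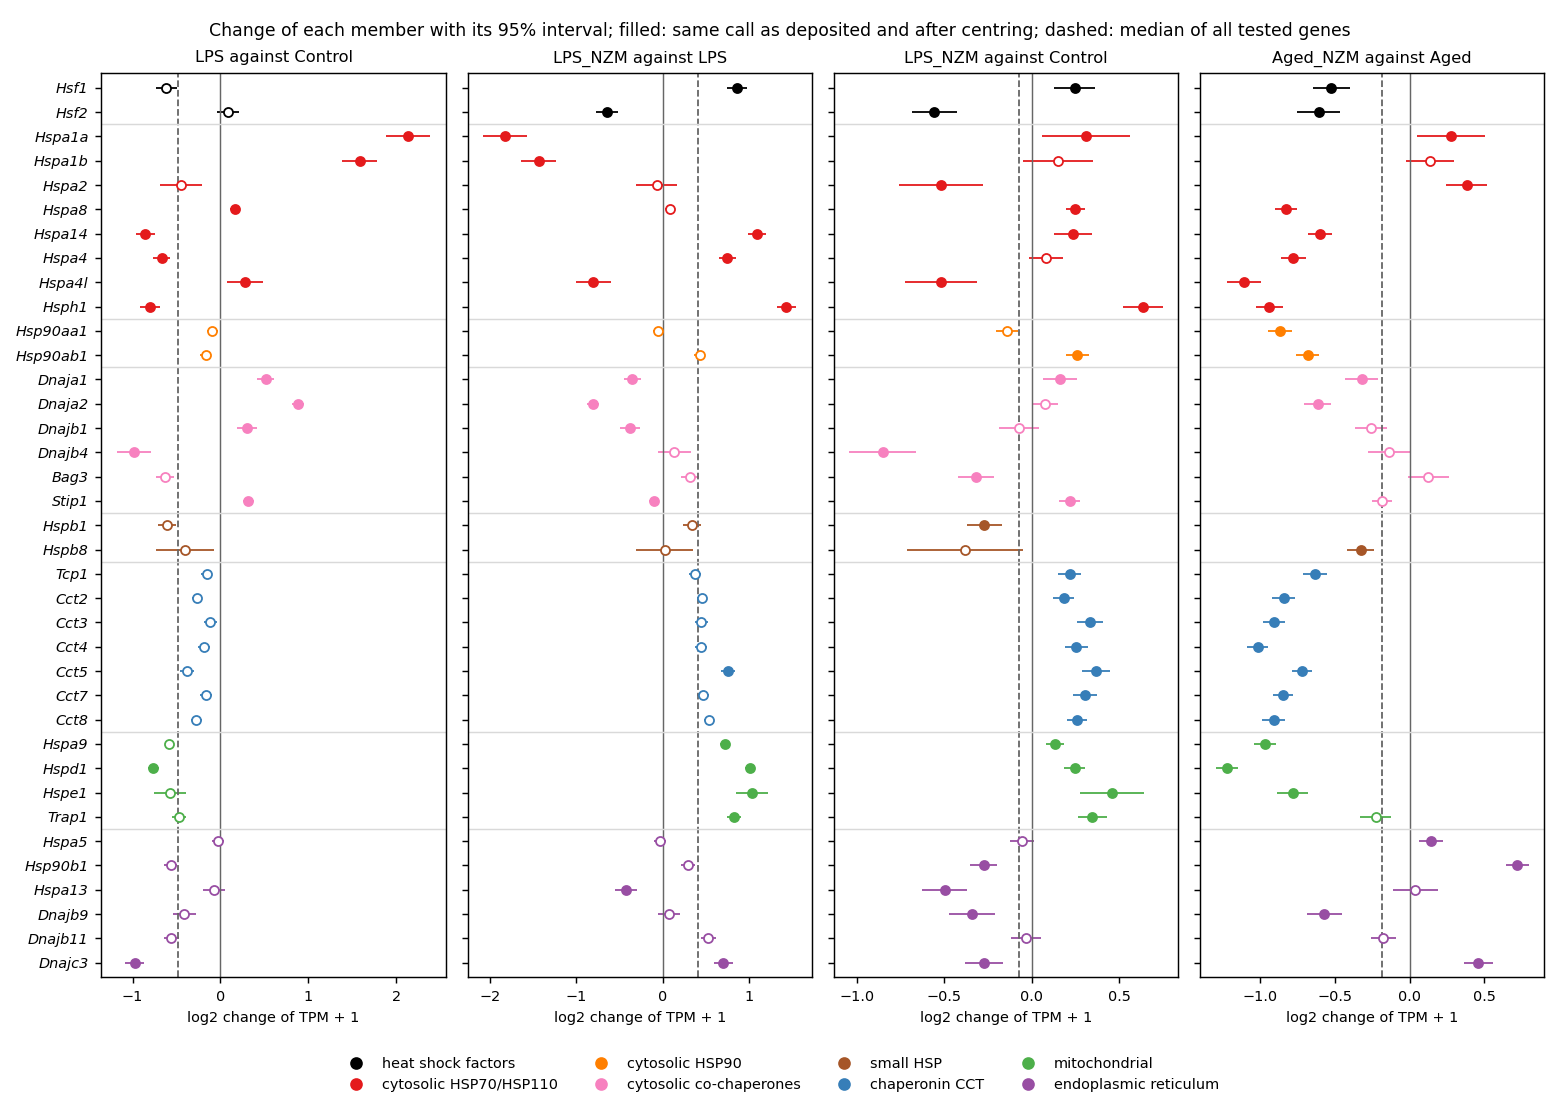
Difference of log2(TPM + 1) for each member (rows, grouped by compartment) with its 95% interval, for 4 comparisons (panels, horizontal axes differ), with 0 as a solid line and the median of all tested genes as a dashed line. Filled points have the same call as deposited and centred; Hspa1a reaches 2.13 in LPS against Control and -1.82 in LPS_NZM against LPS, and every CCT and mitochondrial member lies right of 0 in LPS_NZM against Control.

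Set against Control, LPS_NZM macrophages were not at the same chaperone levels. All 7 CCT members and all 4 mitochondrial members were called higher on both scales, and 4 of the 6 ER members were called lower on both scales. The median of all tested genes differed by only -0.071 here, and 19 of 37 members were called higher and 11 lower, against 18.6% and 29.1% of all genes (centred 21 and 10, against 24.9% and 22% of all genes). Markers of other cells also moved here: of the neutrophil list 6 of 10 were called higher and 0 lower (median 0.50), and of the stromal list 0 of 12 higher and 7 lower (median -0.25), and their part in these values was not tested. The CCT changes ran from 0.18 (Cct2) to 0.37 (Cct5) and the mitochondrial ones from 0.13 (Hspa9) to 0.46 (Hspe1). Cct6a, an eighth CCT subunit outside the 37, changed by 0.25 ± 0.0278 (limma adjusted p = 4.99e-05). Cct5 had 470, 474 and 441 TPM in LPS_NZM, against 367, 342 and 364 TPM in Control, and Hspd1 had 344 to 361 TPM in LPS_NZM, against 295 to 302 TPM in Control, both without overlap.

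The largest rise against Control was that of Hsph1, with 140 to 142 TPM in LPS_NZM and 84.2 to 98.3 TPM in Control (0.63 ± 0.0510, limma adjusted p = 5.50e-06). Hsp90ab1 (0.26), Hspa8 (0.25), Hsf1 (0.25), Hspa14 (0.24), Stip1 (0.22) and Dnaja1 (0.16) were also higher. Dnajb4 had 23.5, 23.1 and 26.9 TPM in LPS_NZM, against 41.5, 47.7 and 45.8 TPM in Control, the largest fall (-0.85 ± 0.0853, limma adjusted p = 2.63e-05). Hsf2 (-0.56), Hspa4l (-0.52), Hspa2 (-0.52), Bag3 (-0.32) and Hspb1 (-0.27) were lower on both scales, and Hsp90aa1 (-0.14) was lower as deposited and not called centred (-0.059). In the ER, Hspa13 (-0.50), Dnajb9 (-0.34), Hsp90b1 (-0.27) and Dnajc3 (-0.27) were lower, and Hspa5 (-0.055) and Dnajb11 (-0.031) were not called. Hspa5 became a call without Control library 1 (-0.088, limma adjusted p = 0.0167).

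For the inducible HSP70 genes, Hspa1a was called higher in LPS_NZM than in Control by 0.31 ± 0.113 (limma adjusted p = 0.0447), but the call was lost without LPS_NZM library 2 or 3, without any LPS library, or without Control library 2 or 3 (0.21 to 0.31, adjusted p = 0.0591 to 0.144); centred it was 0.39 and called. Its ranges were 9.93 to 11.6 TPM in LPS_NZM and 7.23 to 10.5 TPM in Control, which overlap. Hspa1b was not called (0.15 ± 0.0897, limma adjusted p = 0.198), nor was the sum of both genes (0.21 ± 0.0862, limma adjusted p = 0.0682). Dnaja2 (0.078), Hspa4 (0.081), Dnajb1 (-0.074) and Hspb8 (-0.38) were not called as deposited. Centred, Dnaja2 (0.16, limma adjusted p = 0.00264) and Hspa4 (0.16, adjusted p = 0.00944) were called higher, and Dnajb1 (0.0085) and Hspb8 (-0.30) were not called. As deposited, Dnaja2 was called without LPS_NZM library 1 (0.10, limma adjusted p = 0.0363) and Hspb8 without Control library 3 (-0.57, adjusted p = 0.00191).

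In BMSC, NZM given with H2HO, in an order the label does not state, went with lower transcripts of all 7 CCT and all 4 mitochondrial members as deposited, and of 12 of the 17 cytosolic members tested, of which 2 were higher. Of the 6 ER members 3 were called higher and 2 lower. All 7 CCT members, the HSP90 genes, Hspa8, the HSP110 genes and both heat shock factors were lower on both scales, whereas Hsp90b1, Dnajc3 and Hspa5 were higher on both. Hspb1 was not tested because no BMSC library reached 1 TPM, so 36 members were tested. Of these 5 were called higher and 27 lower, against 21.6% and 48.9% of all 13865 genes tested, and centred 8 were called higher and 23 lower, against 31.1% and 35.4% of all genes. The median of all tested genes differed by -0.18. Stromal markers moved with the groups as well: 10 of 11 tested were called higher in Aged_NZM and 0 lower (median 1.41), and their part in the chaperone values was not tested.

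Hsp90ab1 had 1915, 1871 and 1900 TPM in the Aged_NZM libraries, against 3136, 2977 and 3012 TPM in the Aged libraries (-0.68 ± 0.0342, limma adjusted p = 1.39e-07; -0.52 centred). Its stress-inducible partner Hsp90aa1 had 544, 565 and 584 TPM in Aged_NZM, against 1041, 1015 and 1025 TPM in Aged (-0.86 ± 0.0354, limma adjusted p = 3.87e-08; -0.70 centred). Hspa8 had 929, 906 and 904 TPM in Aged_NZM, against 1602, 1602 and 1657 TPM in Aged (-0.83 ± 0.0320, limma adjusted p = 2.81e-08; -0.67 centred). The most abundant cytosolic chaperones were thus lower in every Aged_NZM library. Falls of similar size were seen for Hspa4l (-1.11), Hsph1 (-0.94), Hspa4 (-0.78), Dnaja2 (-0.61), Hspa14 (-0.60), Hsf2 (-0.61) and Hsf1 (-0.52), and smaller ones for Hspb8 (-0.33) and Dnaja1 (-0.32), all called on both scales. Dnajb1 (-0.26) and Stip1 (-0.19) were lower as deposited and not called centred (-0.098 and -0.027). Dnajb4 (-0.14) was not called and became a call without Aged_NZM library 3 (-0.19, limma adjusted p = 0.0291).

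The inducible HSP70 genes did not follow. Hspa1a had 9.04, 6.81 and 8.49 TPM in Aged_NZM, against 6.89, 6.47 and 6.13 TPM in Aged, which overlap. It was called higher by 0.27 ± 0.101 (limma adjusted p = 0.0347), a call lost without Aged_NZM library 1 or 3 or without Aged library 2 or 3 (0.20 to 0.27, adjusted p = 0.0684 to 0.127); centred it was 0.43 and called (adjusted p = 0.00442). Hspa1b had 63.6, 56.0 and 60.1 TPM in Aged_NZM, against 60.5, 51.9 and 51.1 TPM in Aged, and was not called as deposited (0.14 ± 0.0707, limma adjusted p = 0.113). Without Aged library 1 Hspa1b was called (0.21, limma adjusted p = 0.0104), and likewise Bag3 (0.13 with all libraries; 0.20, adjusted p = 0.00342 without it); both were higher on the centred scale. The sum of both HSP70 genes was not called (0.16 ± 0.0716, limma adjusted p = 0.0778). With the split between these copies uncertain, the deposited values put Hspa1a at 0.122 to 0.142 of Hspa1b in Aged_NZM and 0.114 to 0.125 in Aged, against 0.526 to 0.572 in LPS_NZM, 0.725 to 0.784 in LPS and 0.397 to 0.559 in Control. Hspa2, the HSP70 gene best known from testis, had 23.9, 22.1 and 20.7 TPM in Aged_NZM, against 16.9, 16.4 and 17.2 TPM in Aged, without overlap (0.38 ± 0.0615, limma adjusted p = 0.000375).

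All 7 CCT members fell, with changes from -0.63 (Tcp1) to -1.02 (Cct4), and from -0.47 to -0.86 centred. Cct4 had 161, 163 and 160 TPM in Aged_NZM, against 325, 331 and 326 TPM in Aged (-1.02 ± 0.0304, limma adjusted p = 7.16e-09). Cct6a, outside the 37, changed alike (-0.90 ± 0.0313, limma adjusted p = 1.50e-08). In mitochondria Hspd1 had 212, 222 and 219 TPM in Aged_NZM, against 507, 518 and 505 TPM in Aged, the largest fall of the 36 members tested (-1.22 ± 0.0325, limma adjusted p = 3.55e-09; -1.06 centred). Hspe1 had 160, 155 and 155 TPM in Aged_NZM, against 254, 287 and 272 TPM in Aged (-0.78; -0.62 centred), and Hspa9 changed by -0.97 (-0.81 centred). Trap1 was lower as deposited (-0.23) and not called centred (-0.067). The HSP60 transcript was 1.32 to 1.43 times its lid transcript in Aged_NZM and 1.80 to 2.00 times in Aged libraries, without overlap.

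**Figure D4:**
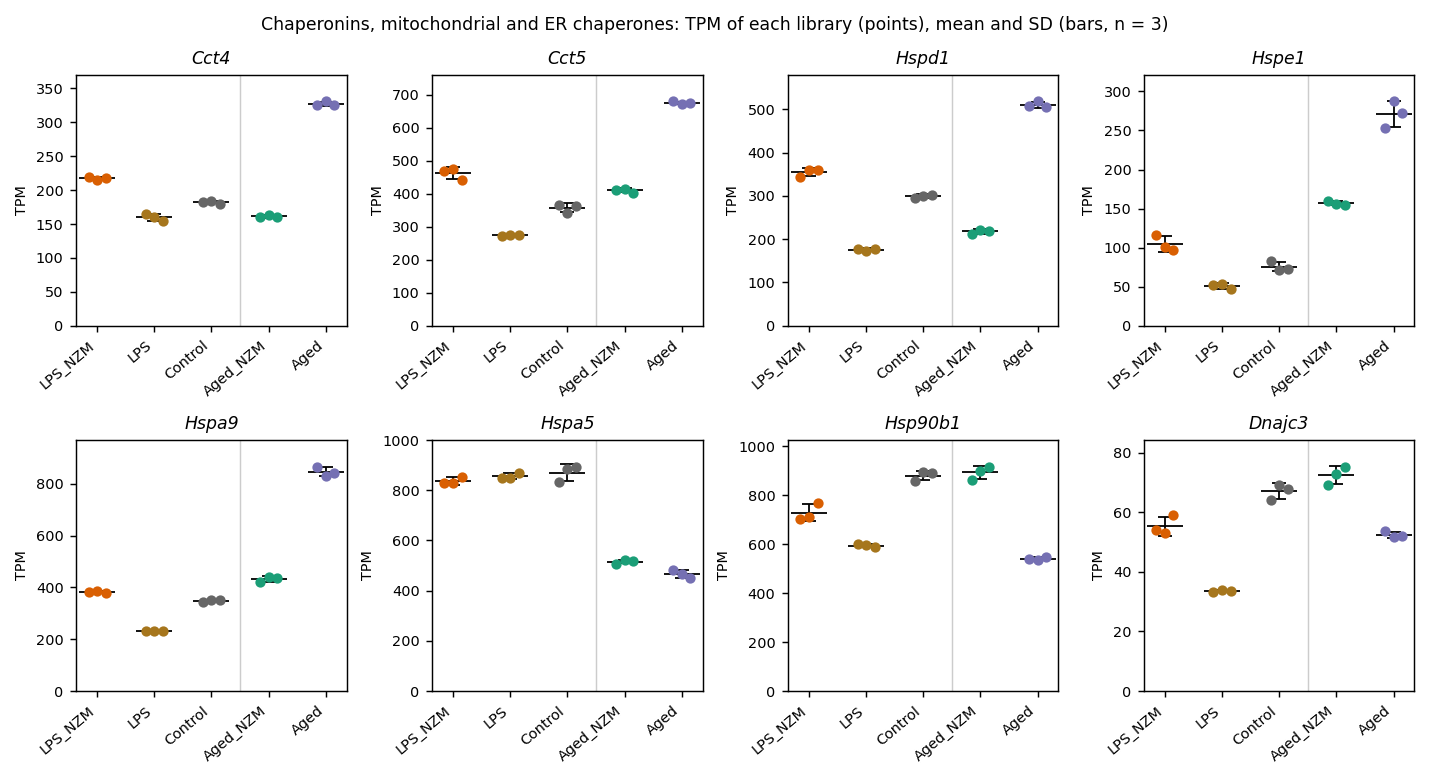
TPM (vertical axes, from 0) of 2 CCT, 3 mitochondrial and 3 ER members in every library (points) with the group mean and SD (bars, n = 3), BMDM groups left and BMSC groups right of the grey line. Cct4, Hspd1, Hspe1 and Hspa9 stand lower in Aged_NZM than in Aged and higher in LPS_NZM than in LPS, whereas Hsp90b1 and Dnajc3 stand higher with NZM in both cell types as deposited.

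The ER members moved in both directions in BMSC. Hsp90b1, the ER HSP90 protein GRP94, had 863, 900 and 917 TPM in Aged_NZM, against 542, 537 and 547 TPM in Aged (0.72 ± 0.0335, limma adjusted p = 9.01e-08; 0.88 centred). Dnajc3 had 69.2, 73.0 and 75.3 TPM in Aged_NZM, against 53.7, 51.7 and 52.1 TPM in Aged (0.46 ± 0.0431, limma adjusted p = 9.71e-06; 0.62 centred). Every Aged_NZM library stood above every Aged library for both. Hspa5 had 508, 522 and 518 TPM in Aged_NZM, against 483, 468 and 450 TPM in Aged (0.14 ± 0.0357, limma adjusted p = 0.00514; 0.30 centred), also without overlap. These are 3 of the 5 ER members with a promoter window, and the element was read in these same genes that are shown above for their rise; Hspa13 has no window. The ER members and the further ER genes listed below were also counted together where they had a window and were tested. Of 9 genes with the element 6 were called higher and 1 lower. Of 22 without it 10 were higher and 7 lower, where 21.6% of all genes were higher and 48.9% lower. The 9 include Hspa5, Hsp90b1 and Dnajc3, whose stretches were printed for this same rise. Among the others, Calr, Pdia6 and Ero1b were higher, Canx was lower, and Creld2 and Syvn1 were not called. For LPS against Control the 9 gave 0 higher and 7 lower and the 22 gave 2 and 16 (all genes 15.2% and 65.6%). For LPS_NZM against LPS these were 7 and 0, and 16 and 2 (all genes 60.4% and 16.9%). For LPS_NZM against Control they were 1 and 3, and 5 and 5 (all genes 18.6% and 29.1%). All these counts are as deposited, and whether the element goes with any of the changes was not tested. Dnajb9, whose protein brings BiP to the ER stress sensor IRE1, fell (-0.57; -0.41 centred), Dnajb11 was lower as deposited (-0.17) and not called centred (-0.016), and Hspa13 was not called as deposited (0.039) and was higher centred (0.20).

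Further chaperone pathway genes were listed by function, outside the 37, and their counts stand against 21.6% higher and 48.9% lower of all genes (centred 31.1% and 35.4%). Of 18 further ER folding genes, 13 were called higher and 3 lower in Aged_NZM (centred 15 and 3), with the largest rise in Sdf2l1, an ER protein of the BiP cycle (25.1 ± 0.772 TPM in Aged_NZM and 13.2 ± 0.755 TPM in Aged, 0.88), and the largest fall in Ero1a, an oxidase for disulfide bonds (198 ± 8.72 TPM in Aged_NZM and 311 ± 2.00 TPM in Aged, -0.65). Among 13 tested genes of the unfolded protein response and ER-associated degradation, 2 were higher and 6 lower (centred 6 and 5), with Xbp1, a transcription factor of that response, rising most (0.77) and Atf6 falling most (-0.74). Of 20 further HSP70 and HSP90 co-chaperones, 0 were higher and 19 lower (centred 0 and 16), with Ppid, a cyclophilin bound to HSP90, falling most (142 ± 7.81 TPM in Aged_NZM and 303 ± 1.60 TPM in Aged, -1.09). Of 15 mitochondrial quality control genes 1 was higher and 11 lower (centred 2 and 8), and of 11 further CCT and prefoldin genes 0 were higher and 7 lower (centred 3 and 4). The list of further cytosolic DNAJ and small heat shock protein genes, so named also below, held Hspa12a, Hspa12b, Hsf4 and Hsbp1 as well. These are neither. Of its 18 genes tested, 4 were higher and 10 lower (centred 7 and 7). Hspa12a, an HSP70 relative, rose most (1.32), and Dnajc2, the ribosome-bound DNAJ partner of Hspa14, fell most (-1.42).

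The same lists were counted in BMDM. For LPS against Control, where 15.2% of all genes were higher and 65.6% lower (centred 36.5% and 29.1%), the HSP70 and HSP90 co-chaperones were called higher in 0 and lower in 18 of 20 (centred 6 and 9), the DNAJ and small heat shock protein genes in 1 and 12 of 17 (centred 5 and 4), the CCT and prefoldin genes in 0 and 8 of 11 (centred 6 and 0), the mitochondrial genes in 1 and 14 of 15 (centred 3 and 7), the ER folding genes in 1 and 15 of 18 (centred 8 and 5) and the unfolded protein response genes in 1 and 9 of 13 (centred 7 and 4). Dnajb6 rose most, with 126 ± 3.62 TPM in LPS and 72.1 ± 1.94 TPM in Control (0.79; 1.34 centred), and Dnajc9, a histone co-chaperone, fell most (-1.82; -1.27 centred). For LPS_NZM against LPS, where 60.4% of all genes were higher and 16.9% lower (centred 29.8% and 35.3%), the lists in this order were called higher and lower in 18 and 0 (centred 12 and 5), 12 and 1 (centred 5 and 5), 8 and 1 (centred 4 and 5), 14 and 1 (centred 9 and 1), 16 and 1 (centred 5 and 5), and 9 and 1 genes (centred 3 and 9). Pdia4, an ER disulfide isomerase, rose most of these genes, with 661 ± 16.4 TPM in LPS_NZM and 110 ± 3.16 TPM in LPS (2.58 ± 0.0325; 2.12 centred), and it was also higher than in Control (225 ± 5.64 TPM, 1.55; 1.63 centred). Fkbp5, a steroid receptor co-chaperone of HSP90, had 32.7 ± 0.931 TPM in LPS_NZM, against 9.87 ± 1.04 TPM in LPS (1.64; 1.17 centred) and 22.03 ± 1.37 TPM in Control (0.55; 0.63 centred). Against Control, 4 co-chaperones, 1 DNAJ or small heat shock protein gene, 5 CCT or prefoldin genes, 4 mitochondrial, 4 ER folding and 3 unfolded protein response genes were higher in LPS_NZM and 2, 4, 3, 2, 2 and 5 were lower, where 18.6% of all genes were higher and 29.1% lower. Centred, the lists in this order had 7, 2, 6, 7, 7 and 3 genes higher and 1, 3, 2, 0, 2 and 4 lower, against 24.9% and 22% of all genes.

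The responses to NZM in BMSC and BMDM were compared in a fit of all 15 libraries, as the change of Aged_NZM against Aged minus the change of LPS_NZM against LPS. The treatment given besides NZM differs along with the cell type, H2HO in BMSC and LPS in BMDM, so these cannot be told apart. As deposited the difference was above 0 for 7 and below 0 for 25 of 37 members, against 17.2% and 54.8% of all 16696 genes tested, and centred for 15 and 18, against 39.9% and 28.7% of all genes. The CCT members (-1.01 to -1.47; -0.38 to -0.85 centred) and the mitochondrial members (-1.05 to -2.23; -0.43 to -1.61 centred) had negative differences on both scales, having fallen in BMSC and, as deposited, risen in BMDM. Hsph1 (-2.37 ± 0.0679; -1.75 centred), Hspd1 (-2.23 ± 0.0384; -1.61 centred), Hspa14 (-1.69; -1.07 centred), Hspa4 (-1.53; -0.90 centred), Hsf1 (-1.39; -0.76 centred), Hsp90ab1 (-1.11; -0.49 centred), Hspa8 (-0.91; -0.29 centred) and Hsp90aa1 (-0.81; -0.19 centred) were likewise below 0.

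On the other side, Hspa1a (2.10 ± 0.163; 2.72 centred) and Hspa1b (1.57 ± 0.127; 2.19 centred) had the largest positive differences, having fallen with NZM in BMDM and not in BMSC, and their sum gave 1.78 ± 0.125 (limma adjusted p = 1.02e-08). The ER members Hspa13 (0.46; 1.08 centred), Hsp90b1 (0.43; 1.05 centred) and Hspa5 (0.18; 0.80 centred), the HSP70 gene Hspa2 (0.45; 1.07 centred) and Dnaja2 (0.19; 0.81 centred) were also above 0 on both scales. Hsf2, Dnaja1 and Dnajb1 were not called as deposited. Centred, they were called above 0 (0.66, 0.65 and 0.74, limma adjusted p = 2.03e-06, 2.90e-07 and 7.18e-08). Hspa4l (-0.31 and 0.31 centred), Dnajb4 (-0.27 and 0.35), Bag3 (-0.19 and 0.44), Stip1 (-0.086 and 0.54) and Dnajc3 (-0.24 and 0.38) changed sign and were called in both directions, so no difference between the cell types can be given for them. The calls as deposited of Dnajb4 (8 of 15 libraries), Bag3 (11 of 15) and Stip1 (7 of 15) were each lost when single libraries were left out. Hspb1 was tested here only because of its BMDM levels, with 0.10 to 0.63 TPM in Aged_NZM and 0 to 0.46 TPM in Aged. That it was not called therefore gives no information on its response in BMSC. Hspb8 was not called, and became a call without LPS_NZM library 1 (-0.42, limma adjusted p = 0.0494), Control library 1 (-0.35, adjusted p = 0.0264) or Control library 3 (-0.35, adjusted p = 0.00388).

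**Figure D5:**
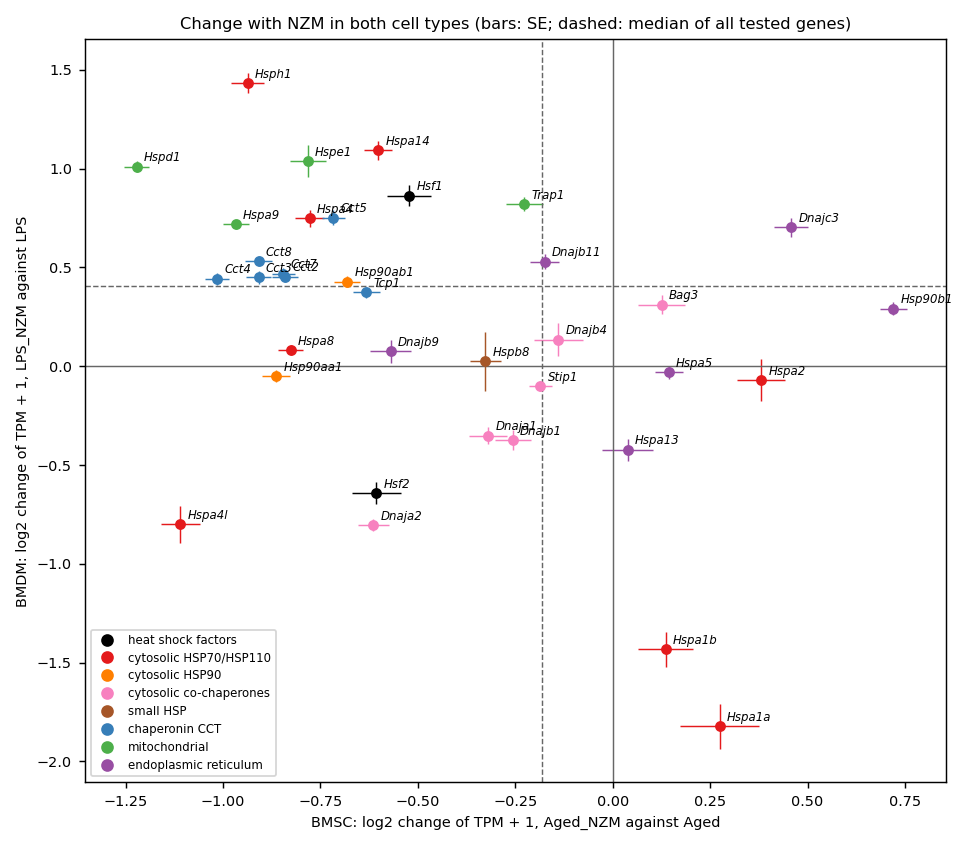
Difference of log2(TPM + 1) with NZM in BMSC (Aged_NZM against Aged, horizontal) and in BMDM (LPS_NZM against LPS, vertical) for the 36 members tested in both, coloured by compartment, with SE bars, 0 as solid and the median of all tested genes as dashed lines. CCT and mitochondrial members lie left of 0 and above 0, and Hspa1a and Hspa1b lie lowest, near 0 in BMSC and below -1 in BMDM.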

How the data were processed

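Gene-level RNA abundance was measured by poly(A) RNA sequencing in 15 libraries. The authors deposited 1 table of TPM for 56979 gene identifiers; per the submitters' processing notes, fastp, HISAT2, StringTie and RSEM were used with the GRCm39 build, with versions and roles not given in the sources used here. Each column sums to 1000000, so depth is unknown and no counting interval can be given. Groups came from the sample titles. The log2(TPM + 1) values were computed here from the deposited TPM and tested with limma 3.58.1 in R 4.3.3 (two-sided moderated test from lmFit and eBayes, with the variance trended on mean level), in fits of the 9 BMDM, the 6 BMSC and all 15 libraries. A gene was tested when it had at least 1 TPM in at least 3 libraries of the fit, and p-values were adjusted by Benjamini and Hochberg over all tested genes, with calls at 0.05. Scripts ran in Python 3.11.15 with matplotlib 3.10.9 and were tested on simulated data. Alternatives were median centring, a pseudocount of 0.1, no filter, a minimum of 5 TPM, no trend, other libraries in the fit, a replicate block and leaving out each library. The members and gene lists were chosen with earlier results of these data known. All 37 members are reported; in the 6 further lists the called genes with the largest rise or fall could be named if the higher group averaged 5 TPM or more, and Cct6a was named as the eighth CCT subunit. Deviations of libraries with the same replicate number correlated at -0.072 to 0.185 (12 pairs), so the numbers were not taken to pair libraries. Protein sequences were not used here.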

Additional observations from a re-analysis of the deposited data

Results flagged for a closer look

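The NZM response of BMSC (Aged_NZM against Aged) differed from that of BMDM (LPS_NZM against LPS) as deposited for 32 of the 37 members, 7 above and 25 below 0, against 17.2% and 54.8% of all genes, by the limma contrast of both changes over 15 libraries. For 5 of them, Hspa4l, Dnajb4, Bag3, Stip1 and Dnajc3, the sign depends on the scale, so no difference can be given. The treatment given besides NZM differs with the cell type, so these cannot be told apart. The values are log2 differences, BMSC change minus BMDM change. Among heat shock factors and HSP70 or HSP110 genes they were -1.39 for Hsf1, 2.10 for Hspa1a, 1.57 for Hspa1b, 0.45 for Hspa2, -0.91 for Hspa8, -1.69 for Hspa14, -1.53 for Hspa4, -0.31 for Hspa4l and -2.37 for Hsph1. Among HSP90 genes and co-chaperones they were -0.81 for Hsp90aa1, -1.11 for Hsp90ab1, 0.19 for Dnaja2, -0.27 for Dnajb4, -0.19 for Bag3 and -0.086 for Stip1. The CCT members gave -1.01 for Tcp1, -1.29 for Cct2, -1.36 for Cct3, -1.46 for Cct4, -1.47 for Cct5, -1.31 for Cct7 and -1.44 for Cct8. The mitochondrial members gave -1.69 for Hspa9, -2.23 for Hspd1, -1.82 for Hspe1 and -1.05 for Trap1. The ER members gave 0.18 for Hspa5, 0.43 for Hsp90b1, 0.46 for Hspa13, -0.64 for Dnajb9, -0.70 for Dnajb11 and -0.24 for Dnajc3. After centring, Dnajb9 and Dnajb11 were no longer called.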

How the results depend on the processing

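Median centring moved the counts most. It gave 21 members higher and 6 lower for LPS against Control, 10 higher and 19 lower for LPS_NZM against LPS, 8 higher for Aged_NZM against Aged, and 15 above 0 for the difference between cell types. It turned the sign for LPS against Control in Hspa2 (0.099), Hsp90aa1 (0.45), Hsp90ab1 (0.38), Hspb8 (0.14), Tcp1 (0.39), Cct2 (0.28), Cct3 (0.43), Cct4 (0.36), Cct5 (0.16), Cct7 (0.38), Cct8 (0.27), Trap1 (0.073), Hspa5 (0.52), Hspa13 (0.47) and Dnajb9 (0.13). For LPS_NZM against LPS it did so in Hspa8 (-0.38), Hsp90ab1 (-0.036), Dnajb4 (-0.33), Bag3 (-0.15), Hspb1 (-0.13), Hspb8 (-0.44), Tcp1 (-0.090), Cct2 (-0.012), Cct3 (-0.015), Cct4 (-0.022), Hsp90b1 (-0.17) and Dnajb9 (-0.39). For LPS_NZM against Control the turned values were 0.0085 for Dnajb1, 0.027 for Hspa5 and 0.052 for Dnajb11, and for Aged_NZM against Aged 0.020 for Dnajb4. For the difference between cell types they were 0.31 for Hspa4l, 0.35 for Dnajb4, 0.44 for Bag3, 0.54 for Stip1, 0.42 for Hspb1, 0.27 for Hspb8 and 0.38 for Dnajc3, and a pseudocount of 0.1 gave 0.27 for Hspb1. The Hspb1 values rest on BMDM alone, since no BMSC library reached 1 TPM. Centring shifts every gene by a constant per library; which scale is closer to RNA per cell was not tested.

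With 1 library left out at a time, members called higher and lower numbered 7 to 8 and 25 to 26 for LPS against Control, 22 to 23 and 9 to 10 for LPS_NZM against LPS, 18 to 20 and 11 to 12 for LPS_NZM against Control, 4 to 7 and 27 to 28 for Aged_NZM against Aged, and 7 and 22 to 26 for the difference between cell types. The sign turned in 4 values, none of them called as deposited with all libraries: Hspa2 (-0.17 to 0.00053) and Hspb8 (-0.019 to 0.092) for LPS_NZM against LPS, and Hsf2 (-0.019 to 0.093) and Dnaja1 (-0.0058 to 0.084) for the difference. With the replicate block, the counts higher and lower in the same order of comparisons were 8 and 26, 22 and 9, 18 and 11, 6 and 27, and 7 and 23. The block ended the calls of Hspa1a for LPS_NZM against Control (adjusted p = 0.0629) and of Dnajb4 (0.0635) and Bag3 (0.0536) for the difference, and made a call of Hspa1b for Aged_NZM against Aged (adjusted p = 0.0342). With no filter, Hspa8 for LPS_NZM against LPS, Hspb8 for LPS against Control, Hspa1a for LPS_NZM against Control and for Aged_NZM against Aged, and Dnajb4 and Bag3 for the difference lost their calls. With no trend, Hsp90aa1 for LPS against Control, Hspa8 for LPS_NZM against LPS, Hspa1a for LPS_NZM against Control, and Dnajb4, Bag3 and Stip1 for the difference did. Other libraries in the fit ended the calls of Hspa1a for LPS_NZM against Control (limma adjusted p = 0.0867) and Aged_NZM against Aged (0.0551). They also ended that of Bag3 for the difference (0.0531) and made a call of Hspb8 there (-0.35, 0.00152). A pseudocount of 0.1 ended the calls of Hspa4l (0.0726) and Dnajb4 (0.0530) for the difference. A minimum of 5 TPM made a call of Hspb8 for LPS_NZM against Control (-0.38, 0.0480).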
